A study of Mus musculus with 8 samples.

Results

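The genes for the CSF1 receptor and the other colony-stimulating factor receptors were examined in microglia sorted from the brains of 4 mutant and 4 control mice at postnatal day 60 (P60). They were the 7 receptor genes *Csf1r*, *Csf2ra*, *Csf2rb*, *Csf2rb2*, *Csf3r*, *Flt3* and *Kit*, together with *Il34*, which encodes a ligand of the CSF1 receptor and not a receptor. These 8 of the 55573 genes listed in the count table were found by matching Ensembl identifiers to mouse gene symbols, and all 8 were among the 20153 genes that passed a filter on low values (10 or more counts in 4 or more libraries). Mutants lacked *Smad2* and *Smad3* in microglia (*Smad2/3* fl/fl;*Cx3cr1*Cre), with Cre expressed from the *Cx3cr1* locus, which is active in microglia and in related macrophages. The GEO labels call the controls wild-type littermates, whereas the Methods state that controls generally carried Cre and a floxed allele. All mice were on a C57BL6/J background, and each library came from 1 mouse.

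Libraries held 37649124 to 40932680 counts in controls and 35639502 to 41946479 in mutants. *Smad3* was lower in mutants (48.7 ± 7.13 against 19.3 ± 11.03 CPM) by the test described below (edgeR adjusted p = 0.0429). CPM are the counts of a gene relative to all counts of its library, with that total scaled by the TMM method. The *Smad3* call was lost in 7 of the 8 fits without 1 library (adjusted p up to 0.110). It was also lost without the filter on low counts (adjusted p = 0.0510) and without the 2 libraries of most neuronal RNA (adjusted p = 0.0986). *Smad2* was at 74.6 ± 13.8 CPM in controls and 58.8 ± 15.0 in mutants (adjusted p = 0.340). *Xist*, the noncoding RNA of the inactive X chromosome, was at 99.5 to 183 CPM in controls and 0.03 to 0.56 in mutants, and the Y-linked *Ddx3y*, *Eif2s3y*, *Uty* and *Kdm5d* were higher in every mutant library than in every control library. Mutant replicate 2 was the lowest mutant in each of these Y-linked genes (*Ddx3y* 9.74 CPM, other mutants 41.7 to 59.8). Its *Kdm5d* level came from 4 counts, against at most 1 in a control. The controls therefore carried the transcripts of females and the mutants those of males, so genotype and sex cannot be told apart in any difference given here. Of the 8 microglial markers examined, 7 were lower in mutants and their summed level fell from between 23585 and 34387 CPM in controls to between 3338 and 3774 CPM in mutants. Less of a cell type and less RNA per cell cannot be told apart in such bulk samples.

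The CSF1 receptor is a receptor tyrosine kinase on which microglia depend for survival, and it is bound by CSF1 and by IL-34. In the brain, IL-34 is made mainly by neurons and CSF1 by glia. The GM-CSF receptor is built of a ligand-binding alpha chain, encoded by *Csf2ra*, and the common beta chain, encoded by *Csf2rb*, which it shares with the receptors for IL-3 and IL-5, while the mouse has a second beta chain gene, *Csf2rb2*, whose product serves IL-3 alone. *Csf3r* encodes the G-CSF receptor, known above all from neutrophils, while FLT3 and KIT are receptor tyrosine kinases of the same class as the CSF1 receptor and are known from dendritic cell precursors, blood progenitors and mast cells.

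In *Smad2/3* mutant microglia, *Csf1r* and *Csf3r* were lower than in controls, by 2.505-fold and 4.99-fold, and both chains of the GM-CSF receptor were higher, *Csf2ra* by 2.12-fold and *Csf2rb* by 1.97-fold. *Csf2rb2*, *Kit*, *Flt3* and *Il34* did not pass the test. Thus 2 of the 8 genes were called higher, 2 were called lower and 4 were not called, where a call was a Benjamini-Hochberg adjusted p under 0.05 in edgeR's quasi-likelihood test across all tested genes. Over all tested genes, 4.36% were called higher and 7.97% lower (12.3% in all). All 4 mutant libraries lay above all 4 controls for *Csf2ra*, *Csf2rb*, *Csf2rb2* and *Kit*, and below them for *Csf1r* and *Csf3r*. Over all tested genes, 9.04% had all mutants above all controls and 13% all mutants below, 22.1% together. The median log2 fold change, mutant over control, was 0.36 over the 8 genes and 0.01 over all tested genes. The first median lies between *Il34* and *Csf2rb2*, neither of them called. It was 0.84 in a fit with a replicate block, and -0.07 over the 6 genes with 10 counts in all 8 libraries. It therefore gives no shared direction for these genes. The 2 higher calls were not stable to the loss of libraries: without control replicate 1 and mutant replicate 1, the libraries of each group with the most neuronal RNA, 0 of the 8 genes were called higher and 2 lower.

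**Figure D1:**
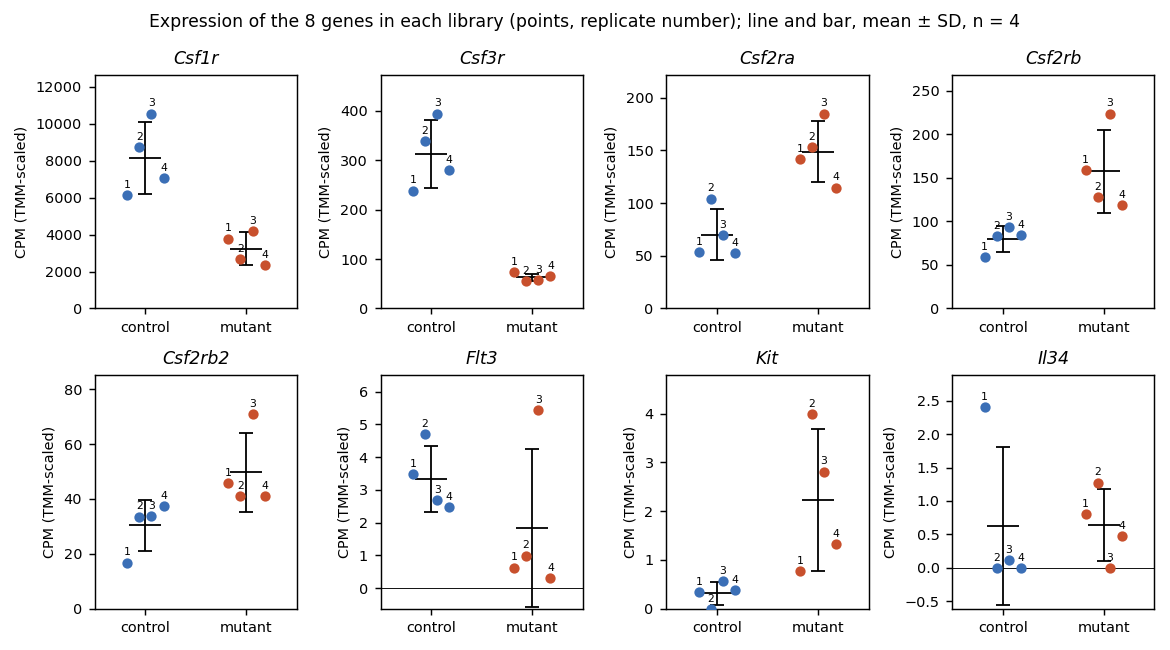
Level of each of the 8 genes in every library, in CPM scaled by TMM (vertical axes, linear, each gene on its own scale), with control libraries in blue, mutant libraries in red and replicate numbers beside the points. The long horizontal line is the mean and the bar is ± 1 SD over 4 mice, and bars that reach below 0 come from a single high library. The groups are fully separated for *Csf1r*, *Csf3r*, *Csf2ra*, *Csf2rb*, *Csf2rb2* and *Kit*, and overlap for *Flt3* and *Il34*.

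The receptor chains were first placed by their level per kilobase of exon, since read counts grow with transcript length. In controls the order of the mean levels per kilobase was *Csf1r* (1409 ± 336 CPM per kb, SD, n = 4), *Csf3r* (86.6 ± 18.9), *Csf2ra* (24.4 ± 8.40), *Csf2rb* (10.99 ± 2.02) and *Csf2rb2* (6.42 ± 1.95). In mutants *Csf1r* still stood first (563 ± 154 CPM per kb) and was followed by *Csf2ra* (51.8 ± 10.1), *Csf2rb* (21.6 ± 6.54), *Csf3r* (17.4 ± 2.21) and *Csf2rb2* (10.5 ± 3.04). The G-CSF receptor gene thus stood above the alpha and beta chain genes of the GM-CSF receptor in controls and below the alpha chain gene in mutants, while the libraries of *Csf2rb* and *Csf3r* in mutants overlapped. No other neighbours among these 5 genes overlapped within a group. *Flt3*, *Il34* and *Kit* followed, at 0.541, 0.321 and 0.0357 CPM per kb on average in controls, where the range of *Il34* overlapped those of both others and *Flt3* stood above *Kit* in every control library. Among all tested genes ranked by this level, *Csf1r* held rank 35 to 59 in the control libraries and rank 72 to 170 in the mutant libraries, and *Csf3r* rank 503 to 933 and rank 3043 to 3772. *Csf2ra* moved the other way, from rank 1711 to 3412 in controls to rank 1075 to 1828 in mutants. *Flt3*, *Kit* and *Il34* ranked at 13682 or further down in every library.

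*Csf1r* (ENSMUSG00000024621) lies on chromosome 18 at 61100598 to 61132149 on the plus strand of GRCm38. Its level was 6151, 8749, 10561 and 7082 CPM in control replicates 1 to 4 and 3786, 2666, 4205 and 2336 CPM in mutant replicates 1 to 4. The highest mutant library was below the lowest control library. The means were 8136 ± 1941 CPM in controls and 3248 ± 890 CPM in mutants (log2 fold change -1.32, SE 0.25, edgeR adjusted p = 0.00998). *Csf1r* alone took 0.601% to 0.922% of all counts of a control library and 0.237% to 0.416% of those of a mutant library. It was called lower in each of the 8 fits that left out 1 library (log2 fold change -1.47 to -1.17, adjusted p 0.0100 to 0.0347). Of its exon bases, 15.1% overlap *Hmgxb3* on the opposite strand, which an unstranded count cannot separate. *Hmgxb3* itself was at 21.1 ± 4.96 CPM in controls and 17.1 ± 9.97 CPM in mutants (log2 fold change -0.30, adjusted p = 0.699), far fewer reads than those of *Csf1r*.

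Ligands of the CSF1 receptor were compared next. *Csf1* (chromosome 3, 107741048 to 107760469) was at 34.7, 32.7, 39.6 and 30.1 CPM in controls and at 4.49, 8.19, 9.97 and 2.32 CPM in mutants. All mutant libraries lay far below all controls, and the log2 fold change was -2.46 (SE 0.41, adjusted p = 0.00525), or 5.49-fold lower. *Csf1* was called lower in all 8 fits without 1 library, so the receptor and 1 of its 2 ligands were lower together in the sorted cells. Summed astrocyte markers were lower too, at 1389 to 2190 CPM in controls and 279 to 1092 CPM in mutants. This fall was carried by *Slc1a3* (1349 CPM in controls and 78.9 in mutants on average). The other 4 markers overlapped between the groups and were not called. They were *Aldoc* (403 and 400 CPM), *Gfap* (33.1 and 51.9), *Gja1* (29.1 and 23.1) and *Aqp4* (15.0 and 24.9). The part of astrocyte RNA in the level of *Csf1* was not tested. *Il34* (ENSMUSG00000031750; chromosome 8, 110741829 to 110805924, minus strand) was at 2.40, 0, 0.11 and 0 CPM in controls and 0.81, 1.27, 0 and 0.47 CPM in mutants, that is, at no more than 93 counts in any library. The groups overlapped entirely, and the interval of its log2 fold change ran from -3.39 to 3.43 (estimate 0.02, adjusted p = 0.996), so no difference was detectable at this depth. The control library with the highest *Il34*, replicate 1, also had the highest summed neuronal markers (310 CPM, against 37.7 to 114 CPM in the other controls). Mutant replicate 1 had nearly the same neuronal sum (303 CPM) with 0.81 CPM of *Il34*, and the mutant with the most *Il34*, replicate 2, had a sum of 150 CPM. The part of neuronal RNA in the *Il34* counts was not tested.

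*Csf2ra* (ENSMUSG00000059326), the alpha chain gene of the GM-CSF receptor, lies on chromosome 19 at 61223957 to 61228429 on the minus strand. It was at 53.6, 104, 69.7 and 52.5 CPM in controls and at 142, 153, 185 and 115 CPM in mutants. All mutant libraries were above all controls, the nearest pair being control replicate 2 and mutant replicate 4. The means were 69.99 ± 24.1 and 149 ± 29.1 CPM (log2 fold change 1.09, SE 0.25, adjusted p = 0.0240). The call was lost without control replicate 1, control replicate 3, mutant replicate 2 or mutant replicate 3, with adjusted p up to 0.0653 and log2 fold changes of 0.96 to 1.34 over all 8 such fits. It was also lost without the 2 libraries of most neuronal RNA (log2 fold change 1.01, adjusted p = 0.0795).

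*Csf2rb* (ENSMUSG00000071713; chromosome 15, 78325752 to 78353847, plus strand), the common beta chain gene, was at 59.0, 83.3, 93.6 and 84.1 CPM in controls and at 159, 128, 224 and 119 CPM in mutants. All mutant libraries again lay above all controls, with means of 80.0 ± 14.7 and 157 ± 47.6 CPM (log2 fold change 0.97, SE 0.24, adjusted p = 0.0280). The call was lost without control replicate 1, control replicate 2, mutant replicate 1 or mutant replicate 3 (log2 fold change 0.76 to 1.09 and adjusted p up to 0.0715 over the 8 fits) and without the 2 libraries of most neuronal RNA (0.85, adjusted p = 0.0905). *Csf2rb2* (ENSMUSG00000071714; chromosome 15, 78282507 to 78305721, minus strand), the IL-3-specific beta chain gene, was at 16.8, 33.6, 33.8 and 37.4 CPM in controls and at 45.8, 41.0, 71.0 and 40.9 CPM in mutants. The groups did not overlap, with means of 30.4 ± 9.24 and 49.7 ± 14.4 CPM, but the difference did not pass the test (log2 fold change 0.71, SE 0.29, adjusted p = 0.141), nor did it in any fit without 1 library.

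Both beta chain genes lie side by side on chromosome 15, and reads from their shared stretches cannot be assigned to one of them with certainty. Over the aligned coding sequence, 2505 of 2631 bases (95.2%) were identical, and the longest identical run was 242 bases. Of the 50-base words of their transcripts, 12.3% of those of *Csf2rb* and 18.9% of those of *Csf2rb2* occurred in a transcript of another gene as well. The 60-base stretch of the coding sequences in which the pair differed most, with 13 differing bases in capitals, shows what separates their reads. It spans coding bases 304 to 363 of *Csf2rb* and 307 to 366 of *Csf2rb2*, read from the GENCODE M21 transcripts of GRCm38.
Csf2rb: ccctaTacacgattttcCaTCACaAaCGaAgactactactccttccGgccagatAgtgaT
Csf2rb2: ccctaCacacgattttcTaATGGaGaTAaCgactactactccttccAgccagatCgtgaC
With the counts of both genes summed, the log2 fold change was 0.91 (SE 0.24, adjusted p = 0.0422). This sum does not depend on how shared reads were divided between the genes. Any reads left uncounted because they matched both would be missing from it as well. Most of its counts were those of *Csf2rb*. The sum was thus called higher with all libraries, but it was not fitted with single libraries left out.

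Whether the chains of the GM-CSF receptor, and both beta chain genes, changed by different amounts was asked with ratios within a library. Such ratios need no scaling between libraries. The ratio of the beta chain genes also depends on how their shared reads were assigned. The ratio of *Csf2rb* to *Csf2ra* counts was on average 1.17 in controls and 1.04 in mutants (geometric means). The log2 ratio was 0.23 ± 0.43 in controls and 0.06 ± 0.23 in mutants, a difference of -0.17 (two-sided exact permutation test, p = 0.486, adjusted over 2 ratios 0.486). The ratio of *Csf2rb2* to *Csf2rb* was 0.369 in controls and 0.317 in mutants, with log2 ratios of -1.44 ± 0.28 and -1.66 ± 0.11, a difference of -0.22 (exact permutation p = 0.2, adjusted 0.4). The smallest p this design allows is 0.0286. In size, the difference in the ratio of *Csf2rb* to *Csf2ra* was below the SD of both groups. That in the ratio of *Csf2rb2* to *Csf2rb* was below the SD of controls and above the SD of mutants. Neither test detected a difference, which with so few libraries does not show that the ratios were equal.

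The ligands of these chains were nearly absent from the sorted cells. *Csf2*, encoding GM-CSF, was at 0.26, 0, 0.08 and 0 CPM in controls and at 0.47, 0, 2.26 and 2.04 CPM in mutants, so that mutant replicate 2 had none and the groups overlapped (log2 fold change 3.74, SE 1.66, adjusted p = 0.175). T and NK cells are known sources of GM-CSF, and their 5 summed markers were at 10.4 to 31.9 CPM in controls and 48.5 to 110 CPM in mutants, higher in every mutant library. *Cd3e* and *Nkg7* were called higher (adjusted p = 0.0195 and 0.0178). *Cd3g*, *Ncr1* and *Thy1* overlapped between the groups and were not called (adjusted p = 0.0534, 0.260 and 0.194). Without the 2 libraries of most neuronal RNA, 0 of the 5 markers were called. The part of T and NK cells in the *Csf2* counts was not tested. *Il3* and *Il5* had 0 counts in all 8 libraries, which allows at most 3 counts, or 0.0648 to 0.0839 CPM per library, for counting error alone. The alpha chain gene of the IL-3 receptor, *Il3ra*, was at 8.16 ± 4.04 CPM in controls and 8.62 ± 6.08 CPM in mutants (log2 fold change 0.08, SE 0.58, adjusted p = 0.952), and *Il5ra* was too low to be tested (0.241 and 0.0594 CPM on average).

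*Csf3r* (ENSMUSG00000028859; chromosome 4, 126024550 to 126044440, plus strand) had the largest change of the 4 called genes. It was at 238, 338, 394 and 279 CPM in controls and at 73.1, 55.2, 57.7 and 64.7 CPM in mutants. The mutant libraries lay close together, and all of them far below the lowest control. The means were 312 ± 68.1 and 62.7 ± 7.98 CPM (log2 fold change -2.32, SE 0.19, adjusted p = 1.41e-04). *Csf3r* was called lower in all 8 fits without 1 library (log2 fold change -2.43 to -2.19). Since neutrophils express this receptor strongly, neutrophil markers were read beside it. Their summed level was 420 to 1938 CPM in controls and 236 to 732 CPM in mutants, and the groups overlapped. Of the 7 neutrophil markers only *Ltf* was called (lower, adjusted p = 0.0354), and the part of neutrophils in the *Csf3r* counts was not tested. The ligand gene *Csf3* had 0 counts in every library. Of the 50-base words of *Csf3r* transcripts, 8.84% occurred in transcripts of AC105061.2, so that a share of its reads was open to either assignment.

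Sequence just upstream of the annotated gene start was read for the receptor genes of adequate level that had a promoter entry in RefSeq (GRCm38.p6), namely *Csf3r*, which was lower, and *Csf2ra* and *Csf2rb2*, which were higher in every mutant library. Each is shown 5′ to 3′ on the strand of its gene with motif matches in capitals: *Csf3r* at chr4:126024409-126024549 (plus strand, 141 bases), *Csf2ra* at chr19:61228430-61228668 (minus strand, 239 bases) and *Csf2rb2* at chr15:78305722-78305971 (minus strand, 250 bases).
Csf3r: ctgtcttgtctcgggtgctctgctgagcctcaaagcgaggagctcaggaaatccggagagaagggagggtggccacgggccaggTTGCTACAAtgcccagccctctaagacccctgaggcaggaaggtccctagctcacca
Csf2ra: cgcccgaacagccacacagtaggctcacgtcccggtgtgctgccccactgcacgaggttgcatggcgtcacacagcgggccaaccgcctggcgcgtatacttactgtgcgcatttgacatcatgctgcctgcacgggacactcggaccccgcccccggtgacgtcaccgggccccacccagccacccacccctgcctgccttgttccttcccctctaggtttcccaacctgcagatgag
Csf2rb2: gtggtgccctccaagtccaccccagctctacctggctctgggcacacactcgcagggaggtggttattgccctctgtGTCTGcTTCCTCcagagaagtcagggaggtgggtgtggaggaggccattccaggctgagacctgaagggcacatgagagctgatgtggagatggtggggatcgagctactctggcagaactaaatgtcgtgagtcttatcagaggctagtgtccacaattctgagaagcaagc
Both strands were searched for the ETS motif bound by PU.1 (GAGGAA), the SMAD box (CAGAC), the RUNX motif (TGTGGT) and the C/EBP motif (TTGCNNCAA). The *Csf3r* window held 1 C/EBP match, as did 1.07% of 32851 RefSeq promoters over the same length. The *Csf2rb2* window held 1 SMAD box, present in 42.2% of promoters, and 1 PU.1-type match, present in 23.3%, and both are on the strand opposite to the gene. The *Csf2ra* window held none of the 4. These are matches of letters and not shown sites of binding.

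*Flt3* (ENSMUSG00000042817; chromosome 5, 147330741 to 147400489, minus strand) was at 3.49, 4.71, 2.69 and 2.47 CPM in controls and at 0.62, 0.99, 5.43 and 0.30 CPM in mutants. Mutant replicate 3 was the highest library of all, whereas the other 3 mutants were below every control. The log2 fold change was -0.86 (SE 0.82, adjusted p = 0.542) with all libraries and -2.37 (adjusted p = 0.0354) without mutant replicate 3. This was the only 1 of the 8 fits without 1 library that called *Flt3*. Since replicate 3 was the highest library, a more negative value follows from leaving it out. Mutant replicate 3 also had the highest summed dendritic cell markers among mutants (36.0 CPM, against 27.4 to 29.3 CPM), while in controls the highest sum, 46.3 CPM in replicate 1, did not go with the highest *Flt3*. The part of dendritic cells in the *Flt3* counts was not tested. Its ligand gene *Flt3l* was at 1.80 ± 0.788 CPM in controls and 2.29 ± 1.36 CPM in mutants (log2 fold change 0.34, SE 0.59, adjusted p = 0.760).

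*Kit* (ENSMUSG00000005672; chromosome 5, 75574916 to 75656722, plus strand) was at 0.34, 0, 0.56 and 0.38 CPM in controls and at 0.78, 4.00, 2.81 and 1.33 CPM in mutants. These levels came from 0 to 20 counts per control library and 30 to 185 counts per mutant library. All mutants were above all controls, but the spread among them was wide and edgeR made no call (log2 fold change 2.80, SE 1.03, adjusted p = 0.110), whereas DESeq2, which called 22.6% of the genes it tested, did (2.82, adjusted p = 0.0229). The 2 mutant libraries with the most *Kit*, replicates 2 and 3, were also those with the highest summed mast cell markers (16.3 and 24.3 CPM, against 0 and 1.30 CPM in the other 2 mutants). Controls had 0 to 9.01 CPM of these markers. *Tpsb2*, a mast cell tryptase, was at 0 in all of them and in mutant replicates 1 and 4. Like *Tpsb2*, *Cma1* and *Mcpt4* were highest in mutant replicates 2 and 3. *Cpa3* (4.89 CPM), *Fcer1a* (3.54 CPM) and *Ms4a2* (0.31 CPM) were instead highest in control replicate 2. Control replicate 2, with 9.01 CPM of the markers, had no *Kit* count, and mutant replicate 4, with 0 CPM of the markers, had more *Kit* than any control. The part of mast cells in the *Kit* counts was not tested. Without mutant replicates 2 and 3 the log2 fold change of *Kit* was 1.72 (adjusted p = 0.460), but since these were the libraries with the most *Kit*, a smaller value follows from leaving them out and bears on no source. In that fit of 4 controls against 2 mutants, *Csf3r* was the single one of the 8 genes still called (log2 fold change -2.18, adjusted p = 0.00735), and *Csf1r* was at -1.41 (adjusted p = 0.0626). The ligand gene *Kitl* was at 7.13 ± 3.82 CPM in controls and 2.90 ± 1.104 CPM in mutants (log2 fold change -1.30, SE 0.47, adjusted p = 0.107; DESeq2 adjusted p = 0.0460).

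**Figure D2:**
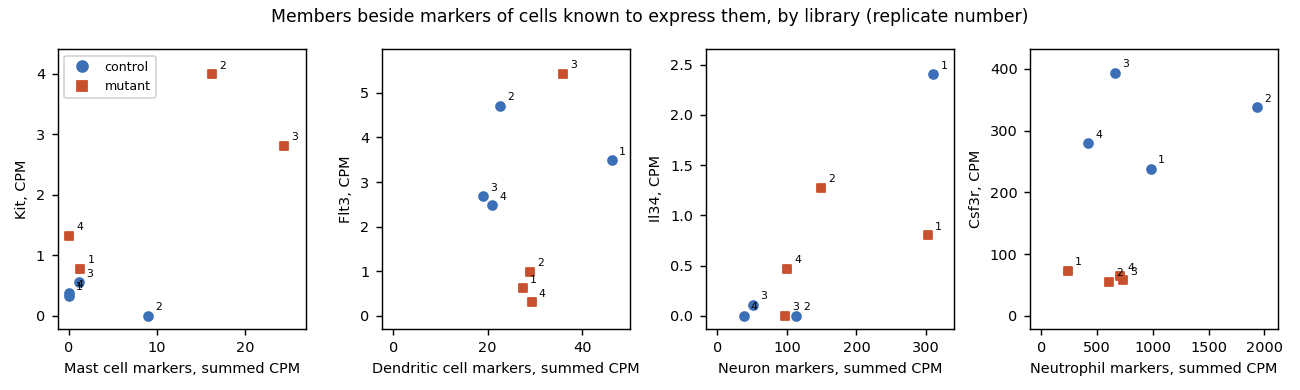
Level in CPM of *Kit*, *Flt3*, *Il34* and *Csf3r* (vertical axes) against the summed CPM of markers for a cell type known to express each gene (horizontal axes), 1 point per library, with controls as blue circles and mutants as red squares labelled by replicate. Mutant replicates 2 and 3 stand apart in both *Kit* and mast cell markers, control replicate 1 is highest in *Il34* and is close to mutant replicate 1 in neuronal markers, the *Csf3r* levels of the groups do not overlap, and the neutrophil sums do.

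Of the 7 ligand genes of these receptors other than *Il34*, 4 could be tested, 1 was lower (*Csf1*) and 0 were higher. Among 6 partner chains and related receptors, 5 could be tested, and *Pdgfrb* alone was called, as lower. Over all tested genes, 7.97% were called lower and 4.36% higher. With so few genes, 1 call in either list says nothing about the list as a whole. *Pdgfrb*, a platelet-derived growth factor receptor of the same kinase class and a gene of pericytes, lies directly upstream of *Csf1r* on chromosome 18, at 61045150 to 61085061. It was at 1.47, 16.4, 12.9 and 12.9 CPM in controls and at 0.08, 1.19, 0.11 and 0.03 CPM in mutants (log2 fold change -4.91, SE 1.18, adjusted p = 0.0275), and the call was lost in 6 of the 8 fits without 1 library (adjusted p up to 0.0700). Control replicate 1 was near the mutants, and the other 3 controls were far above them. Summed endothelial and mural markers were also lower in every mutant library (3.33 to 11.7 CPM against 15.1 to 25.5 CPM). However, none of the 4 tested markers of this list was called. *Pecam1* (9.48 CPM in controls and 2.42 in mutants on average), *Kdr* (5.97 and 3.49) and *Rgs5* (0.77 and 0.11) were lower. *Flt1* was higher (0.65 and 1.80). The part of endothelial and mural cells in the level of *Pdgfrb* was not tested. *Pdgfra* (log2 fold change 0.54, adjusted p = 0.570), *Ptprz1* (0.20, adjusted p = 0.887) and *Sdc1* (-0.62, adjusted p = 0.794), of which the last 2 encode other surface proteins reported to bind IL-34, did not pass the test.

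**Figure D3:**
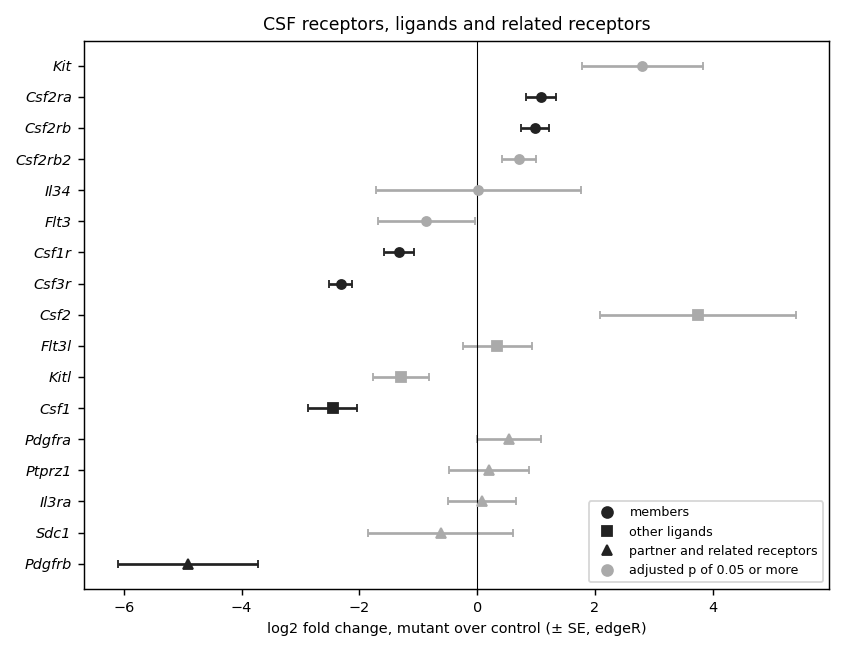
Log2 fold change, mutant over control, with its standard error derived from edgeR's F statistic (horizontal axis). Circles are the 8 genes, squares the other tested ligand genes and triangles the tested partner and related receptors. Black marks an adjusted p under 0.05 and grey one of 0.05 or more. Of the called genes, *Csf1r*, *Csf3r*, *Csf1* and *Pdgfrb* lie to the left of 0 and *Csf2ra* and *Csf2rb* to the right. The widest bars are those of *Il34*, *Csf2*, *Sdc1*, *Pdgfrb* and *Kit*, of which *Pdgfrb* alone was called. *Il34*, *Csf2* and *Kit* had very low counts.

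In a chosen list of intracellular signalling genes, not all of them particular to these receptors, genes were lower more often than higher. Of 41 such genes, all tested, 13 were called lower, 2 higher and 26 were not called, where 7.97% of all tested genes were called lower and 4.36% higher. The median log2 fold change was -0.67 against 0.01 over all tested genes. The count of lower calls was 9 to 15 in the fits without 1 library, lowest without control replicate 2 or mutant replicate 2, it was 7 without both mutant replicates 2 and 3, and it was 15 without the 2 libraries of most neuronal RNA. The largest decreases among them were those of *Pik3r5* (143 ± 47.7 CPM in controls, 25.5 ± 5.71 CPM in mutants), a regulatory subunit of phosphoinositide 3-kinase gamma, and *Socs3* (1518 ± 640 and 306 ± 73.7 CPM), a feedback inhibitor of the G-CSF receptor. Their log2 fold changes were -2.49 (SE 0.27, adjusted p = 6.0e-04) and -2.31 (SE 0.33, adjusted p = 0.00213). *Inpp5d*, the lipid phosphatase SHIP1, which opposes phosphoinositide 3-kinase, was at 527 ± 138 CPM in controls and 135 ± 28.0 CPM in mutants (-1.97, SE 0.24, adjusted p = 9.7e-04). *Plcg2*, a phospholipase downstream of receptor kinases (-1.83, SE 0.32, adjusted p = 0.00605), and the adaptor *Gab1* (-1.43, SE 0.27, adjusted p = 0.00985) were lower as well. The lower group thus held genes that carry signals and genes that inhibit them.

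Higher in mutants were *Hcst* and *Socs1*. *Hcst* encodes DAP10, a membrane adaptor that recruits phosphoinositide 3-kinase, and was at 13.7 ± 3.91 CPM in controls and 46.9 ± 11.8 CPM in mutants (log2 fold change 1.77, SE 0.27, adjusted p = 0.00304). DAP10 is also an adaptor of NK and T cells, whose summed markers were higher in the same libraries as given above, and their part in this change was not tested. *Socs1*, an inhibitor of JAK kinases, was at 13.6 ± 2.02 and 23.5 ± 3.15 CPM (0.79, SE 0.19, adjusted p = 0.0253), and its call was lost in 5 of the 8 fits without 1 library. *Tyrobp*, encoding the adaptor DAP12 through which the CSF1 receptor also signals, was at 1369 ± 304 CPM in controls and 1385 ± 222 CPM in mutants (0.02, SE 0.20, adjusted p = 0.971).

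Of 12 transcription factor genes known to act on *Csf1r* or to work with its signal, 4 were lower, 1 was higher and 7 were not called, beside 7.97% lower and 4.36% higher over all tested genes. Their median log2 fold change was -0.51, against 0.01 over all tested genes. Without 1 library, 2 to 4 were lower (2 without control replicate 2, control replicate 3 or mutant replicate 4) and 0 or 1 higher. *Spi1*, which encodes PU.1, the main activator of *Csf1r*, was at 505 ± 54.9 CPM in controls and 352 ± 18.05 CPM in mutants (log2 fold change -0.52, SE 0.14, adjusted p = 0.0376). This call held in 1 of the 8 fits without 1 library (adjusted p up to 0.102) and was lost in 3 of 7 other settings: library totals without TMM (-0.40, adjusted p = 0.0649), no filter on low counts (-0.54, adjusted p = 0.0849), and without the 2 libraries of most neuronal RNA (-0.57, adjusted p = 0.0759). *Egr2*, a zinc finger factor induced by CSF1, was lower (97.0 ± 55.0 and 15.5 ± 6.43 CPM, log2 fold change -2.64, SE 0.46, adjusted p = 0.00606), as were *Irf8* (-1.42, SE 0.20, adjusted p = 0.00184) and *Fli1* (-0.98, SE 0.22, adjusted p = 0.0187). *Ets2*, an ETS factor that acts with the CSF1 signal, was higher (86.7 ± 23.4 and 254 ± 158 CPM, 1.55, SE 0.40, adjusted p = 0.0356). The calls of *Fli1* and *Ets2* held in 5 and 3 of the 8 fits without 1 library. *Runx1*, which acts with PU.1, was at -0.40 (SE 0.18, adjusted p = 0.188).

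**Figure D4:**
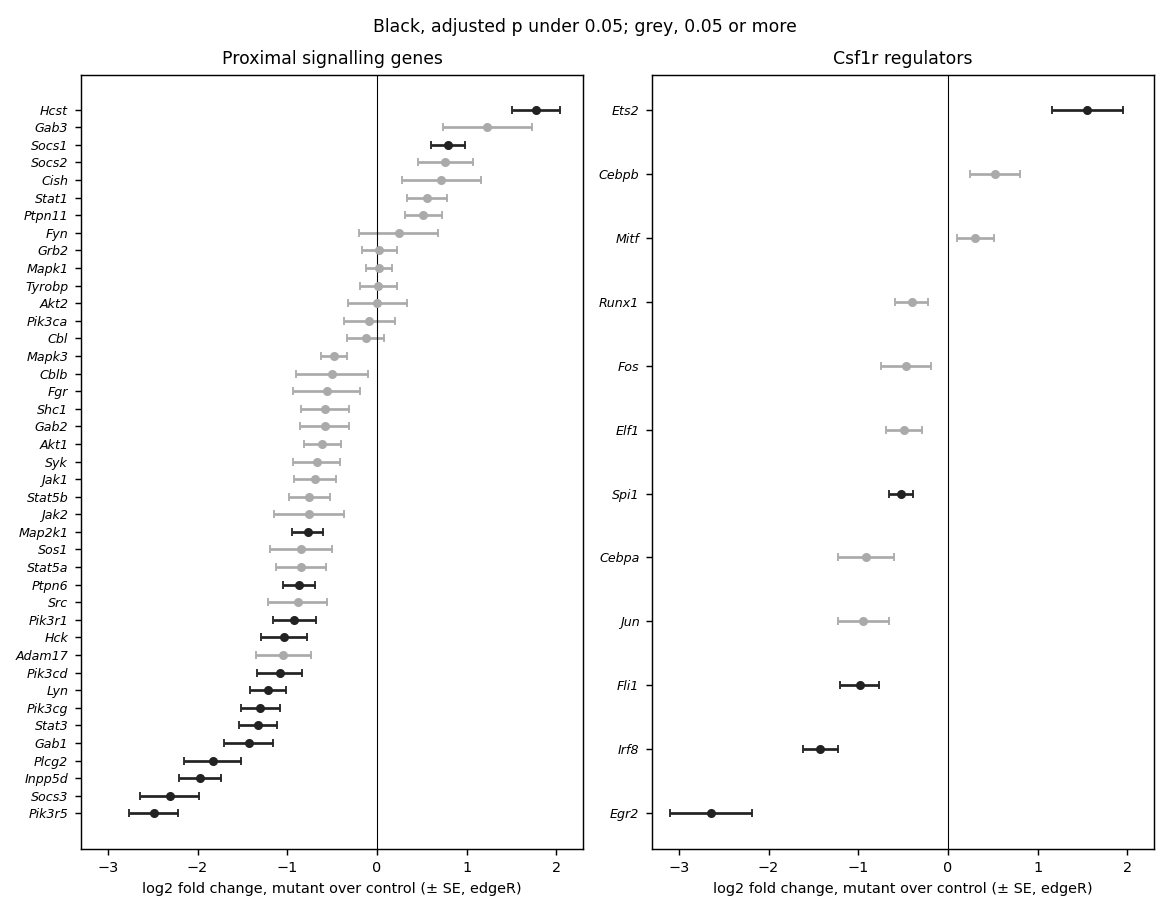
Log2 fold change, mutant over control, with its standard error derived from edgeR's F statistic (horizontal axes). The 41 signalling genes (left) and the 12 regulators of *Csf1r* (right) are ordered by value. Black points passed an adjusted p of 0.05 and grey points did not; among signalling genes 13 black points lie left of 0 and 2 right of it, with *Tyrobp* at 0.02.

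To place the called receptors among all well expressed genes, Pearson correlations of log2 CPM over the 8 libraries were computed with 4938 genes of a mean of at least 5 log2 CPM. They are given without a test, since any 2 genes that differ between the groups correlate. The genes most like *Csf1r* were *Cttnbp2nl* (r = 0.997), *Fermt3* (0.996), *Mknk1* (0.995), *Ifngr1* (0.995) and *Dnm2* (0.995), all called lower. *Fermt3* encodes the integrin activator kindlin-3 and *Ifngr1* a chain of the interferon gamma receptor. Those most like *Csf3r* were *Naglu* (0.994), a lysosomal enzyme gene, and the microglial receptor genes *Cx3cr1* (0.994) and *P2ry13* (0.994). *Cx3cr1* was at 5456 to 8628 CPM in controls and 1278 to 1349 CPM in mutants. The *Cx3cr1* locus carries Cre in mutants and, by the Methods, generally in controls, so its level may depend on the allele. *Csf2ra* was most like *H2-D1* (0.972), *Irs2* (0.964) and *H2-Q1* (0.964), and *Csf2rb* most like *H2-T23* (0.976), *Slc43a2* (0.976) and *H2-T-ps* (0.973). All 6 of these were called higher, and *H2-D1*, *H2-Q1* and *H2-T23* belong to the MHC class I region. *Csf2rb2* was most like *Smim3* (0.976), *Csf2rb* (0.928) and *Slc43a2* (0.927).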

How the data were processed

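RNA of sorted microglia was sequenced from 4 mutant and 4 control mice. The authors' Methods give Rsubread as the aligner, mm10 as the build and featureCounts as the counter, and the deposited values are raw counts per gene, unscaled. Aligner version, annotation and strand setting are not given in the sources used here. The labels name Nextera XT single-end libraries and the Methods NEBNext Ultra II paired-end libraries, both unstranded, and the Methods name another deposit for these mice. The authors' DESeq2 table (mean, fold change, standard error, statistic, p and adjusted p) was not used.

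The deposited counts were tested with edgeR 4.0.16 (R 4.3.3) without a block: 10 or more counts in 4 or more libraries, TMM scaling, glmQLFit and glmQLFTest, Benjamini-Hochberg adjustment over 20153 genes, call at an adjusted p under 0.05. With a biological coefficient of variation of 0.542, it is the spread between mice and not depth that limits precision for well expressed genes. CPM are TMM-scaled, given as mean ± SD. Limits from 0 counts cover counting error only, since reads were not tied to single molecules. Ratios used counts plus 0.5. The script was first tested on simulated data. Gene positions are those of GENCODE M21, which matched 55480 of the 55573 identifiers. Python 3.11.15 was used for tables and plots.

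The genes examined, the gene lists and the tests were chosen with earlier results of these data known. Genes named are the 8 members, their ligands and related receptors, the targeted and 5 sex-linked genes, up to 5 called genes of largest change in each direction plus *Spi1*, *Irf8*, *Runx1* and *Tyrobp* of the signalling and regulator lists, marker sums, and the 3 to 5 genes most correlated with each well expressed member. *Hmgxb3*, *Slc1a3*, *Cd3e*, *Cd3g*, *Nkg7*, *Ncr1*, *Thy1* and *Ltf* were added after their values were seen. So were the other single astrocyte, mast cell, endothelial and mural markers named, apart from *Tpsb2*. Alternatives were DESeq2 1.42.0, RLE factors, library totals, other filters, a replicate block and each library left out. Fits without pairs of libraries and with the beta chains summed were added after seeing the data. No deposited sample column was left unused (0).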

Additional observations from a re-analysis of the deposited data

Results flagged for a closer look

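The highest and lowest library of each group of 4 were tested for standing apart from the rest by Dixon's ratio. This was done over 66 sets of values (genes and marker sums in each group). For independent, normally spread values, chance gives about 1 in 20. Several sets here held values at or near 0, and the sets share libraries, so the number found cannot be read against that rate. In 11 sets a library stood apart. Among the 8 genes these were *Il34* in control replicate 1 (2.40 CPM, others 0 to 0.112), *Csf2rb2* in mutant replicate 3 (71.0 CPM, others 40.9 to 45.8) and *Flt3* in mutant replicate 3 (5.43 CPM, others 0.304 to 0.994). Among related genes, *Il5ra* stood apart in control replicate 2 (0.937 CPM, others 0 to 0.0269) and mutant replicate 2 (0.238 CPM, others 0), *Pdgfrb* in mutant replicate 2 (1.19 CPM, others 0.0276 to 0.111) and *Sdc1* in control replicate 1 (8.51 CPM, others 0.895 to 1.16). Among marker sums, mutant replicate 3 had more microglial RNA than the other mutants (3774 CPM, others 3338 to 3375), control replicate 2 more mast cell RNA (9.01 CPM, others 0 to 1.147) and more endothelial and mural RNA (25.5 CPM, others 15.1 to 15.9), and control replicate 1 more dendritic cell RNA (46.3 CPM, others 19.0 to 22.7).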

How the results depend on the processing

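*Csf1r*, *Csf3r* and *Csf1* kept their direction and call under DESeq2, RLE factors, library totals, both other filters, the block and each left-out library. Library totals moved the median log2 fold change of all genes by 0.12 and RLE factors by 0.01, and none of the 8 genes changed sign under either. DESeq2 called 4281 genes of all (22.6%) against 2485 with edgeR. Without 1 library the count over all genes was 1567 to 2499, lowest without control replicates 2 (1572) and 3 (1567). Of the 8 genes, 0 to 2 were called higher (0 without control replicate 1 or mutant replicate 3) and 2 to 3 lower. Without the 2 libraries of most neuronal RNA, 0 were called higher. The cause of these changes was not tested. *Il34* ranged from -0.56 to 4.00 (log2) without 1 library, negative in 5 of 8 fits (-0.39, -0.33, -0.32, -0.11 and -0.56 without control replicates 2, 3 and 4 and mutant replicates 1 and 2). *Flt3l* ranged from -0.013 to 0.65, *Il3ra* from -0.36 to 0.42 (-0.14, -0.36 and -0.12 without control 2, mutant 3 and mutant 4), *Ptprz1* from -0.42 to 1.15 (-0.03, -0.05 and -0.42 without control 3, control 4 and mutant 1), *Sdc1* from -1.27 to 0.86 (0.22 without the 2 libraries of most neuronal RNA) and *Tyrobp* from -0.078 to 0.14 (-0.078, -0.066 and -0.071 without control 1, control 2 and mutant 4). *Il34* and *Kit* could not be tested with 10 counts required in all 8 libraries.

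Both groups carry replicate numbers 1 to 4, but the labels do not pair them, and deviations from the group means correlated by 0.17, 0.02, 0.14 and 0.11 between same-numbered libraries, with 6 of 8 libraries closest to their own number. Under a replicate block, 2383 genes of all were called, 2 of the 8 genes higher and 2 lower (*Csf1r* -1.34, *Csf3r* -2.30, *Csf2ra* 1.12, *Csf2rb* 0.95), *Il3ra* moved to -0.12, and the ratios of *Csf2rb* to *Csf2ra* and of *Csf2rb2* to *Csf2rb* differed by -0.17 and -0.22 (exact permutation of pairs p = 0.5 and 0.25, smallest possible 0.125). Left-out libraries moved these ratio differences to between -0.36 and -0.02 and between -0.34 and -0.13.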
